A study of Homo sapiens with 8 samples.

Results

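The lower part of glycolysis was described through the 9 genes for its enzymes that are named by symbol, ALDOA, ALDOC, TPI1, GAPDH, PGK1, PGAM1, ENO1, ENO2 and PKM, out of 62639 genes with a transcript in the deposited table. RNA came from MOLM-13, a human acute myeloid leukemia cell line, in which doxycycline switched on a short hairpin RNA for 9 days. There were 4 libraries with a hairpin against PTBP1 (shPTBP1) and 4 with a scrambled hairpin (shSCR, labelled shControl), and all 8 carried the inducible lentiviral vector with its mCherry and truncated NGFR reporters and received doxycycline. Each group used 1 hairpin sequence in 1 cell line. The labels name the libraries biological replicates but do not say whether they were separate cultures. The p-values therefore measure the spread between these libraries. cDNA was read in long reads on a nanopore sequencer, and counts per annotated transcript were summed per gene.

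Glycolysis splits a sugar bisphosphate into trioses and then oxidizes and dephosphorylates them to pyruvate, and the lower enzymes carry out these steps and return ATP. Proliferating cells, leukemia cells included, typically express these enzymes at a high level. PTBP1 is an RNA-binding protein known to repress the M1 exon of PKM, so that dividing cells make mostly the M2 form of pyruvate kinase, and ALDOC and ENO2 are the paralogs of aldolase and enolase best known from neurons.

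The libraries held 1528449 to 1613342 counts, with 12322 to 12589 genes detected. PTBP1 itself, the target of the hairpin, had 10 to 23 counts in the shPTBP1 libraries and 64 to 90 in the shSCR libraries, which separated the groups in the direction of the labels. Of 8 myeloid markers, 6 were abundant enough to be tested, with AZU1, a granule protein, at 3688 and 3658 normalized CPM after shPTBP1 and shSCR (CPM, counts per 1000000 counts after TMM scaling between libraries). FLT3 had 53 counts and SPI1 had 1 count in all 8 libraries together, although both are usual in this lineage. The median log2 fold change of the 6 was 0.13. CSF1R, the receptor for macrophage colony-stimulating factor, was called lower (-0.97, edgeR adjusted p = 0.0375), and the other 5, at 0.01 to 0.33, were not called. The erythroid and T cell markers were at 0 in every library, and the B cell markers gave 1 count. Of the epithelial markers, KRT8 had 15 counts after shPTBP1 and 32 after shSCR. KRT18 had 5 counts and EPCAM 3 in all 8 libraries together, and none of these was abundant enough to be tested. The share of mitochondrial counts was 1.09% in shSCR replicate 2 and 1.74% to 2.18% in the others. NGFR, a truncated form of which is a reporter of the vector, had 927 ± 53.5 normalized CPM after shPTBP1 and 1658 ± 225 after shSCR (SD). It was called lower (log2 fold change -0.84, edgeR adjusted p = 9.36e-05), and how far these counts came from the vector was not tested. In bulk RNA, fewer cells of a type and less RNA per cell cannot be told apart.

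PKM, ENO2 and ALDOC were lower after PTBP1 KD, and none of the 9 genes was higher. All 9 passed the filter on low counts, and 3 of them were called lower at an adjusted p under 0.05 in the quasi-likelihood test of edgeR, where 3.19% of the 7597 genes tested were called lower and 2.36% higher. In 5 of the 9, ALDOA and ENO1 in addition to the 3 called, every shPTBP1 library lay below every shSCR library, as was the case for 6.37% of all genes. The fold change was below 0 in 9 of 9 genes, against 50.05% of all genes, and the median log2 fold change was -0.12 in the 9 genes and -0.00014 over all genes. The signs were those of the normalized values. With all 8 libraries they were below 0 under each other scaling and test in which a gene received an adjusted p. Leaving out a library brought TPI1, PGK1 or PGAM1 slightly above 0 in 4 cases (0.0012 to 0.030), and left 1 to 3 members called lower, with PKM alone without shPTBP1 replicate 3, shPTBP1 replicate 4 or shSCR replicate 4. Together the 9 genes held 1.95% ± 0.0785 (SD, n = 4) of the counts of a library after shPTBP1 and 2.19% ± 0.0485 after shSCR. Without PKM these shares were 1.81% ± 0.0757 and 1.97% ± 0.0387.

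**Figure D1:**
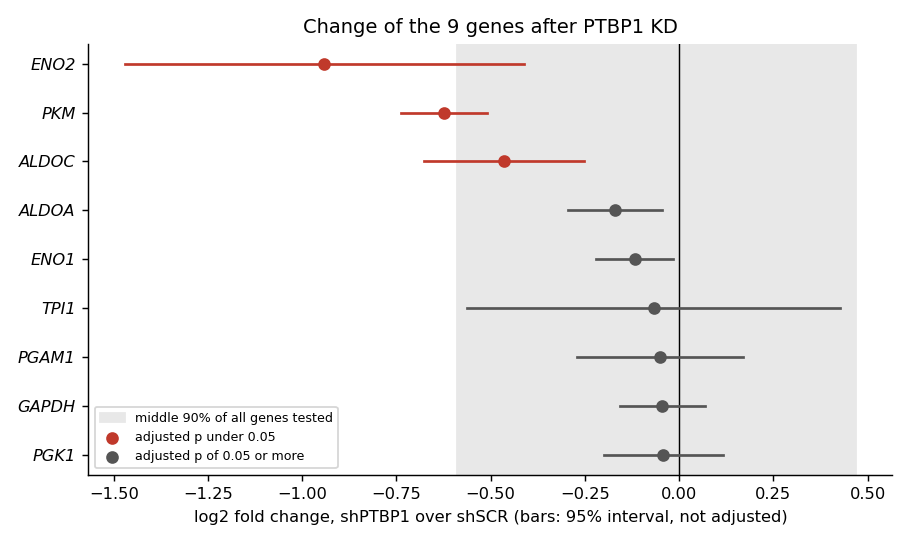
Log2 fold change of each gene after PTBP1 KD (x axis, shPTBP1 over shSCR) with its 95% interval, not adjusted for the number of genes; red marks genes with an adjusted p under 0.05 and the grey band holds the middle 90% of the 7597 genes tested, from -0.59 to 0.47. ENO2 (-0.94) and PKM (-0.62) lie beyond the lower edge of the band and ALDOC (-0.46) lies inside it.

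**Figure D2:**
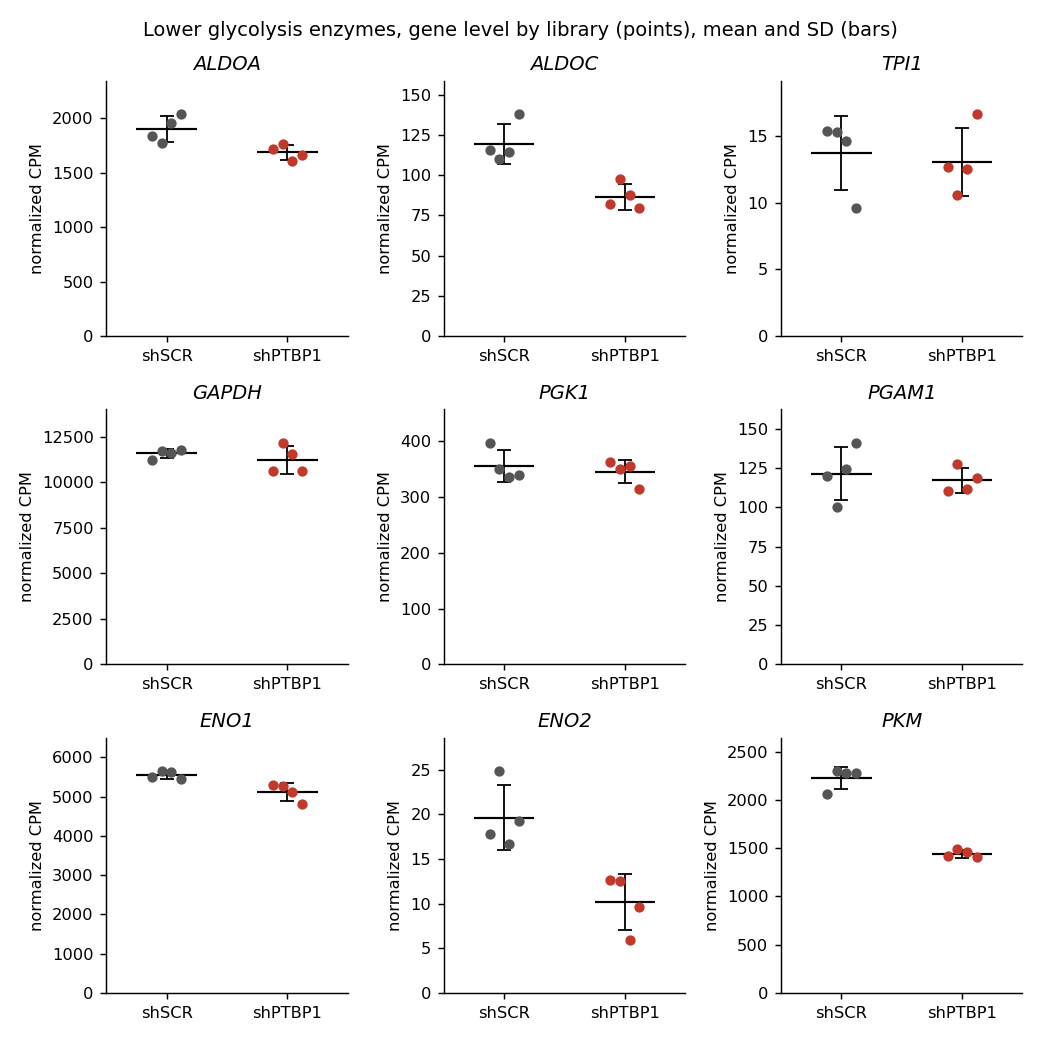
Normalized CPM (y axis, from 0) of the 9 genes in each library, with points for libraries and bars for the mean and SD of 4 libraries per group. The groups of PKM lie far apart, from 1407 to 1496 against 2059 to 2297 CPM, whereas those of TPI1, GAPDH, PGK1 and PGAM1 overlap.

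Aldolase, which cleaves fructose bisphosphate, is encoded by ALDOA in most tissues and by ALDOC in brain. ALDOA (ENSG00000149925, chr16:30064164-30070457, plus strand, GRCh38) had 1718, 1767, 1608 and 1664 normalized CPM in the 4 shPTBP1 libraries and 1840, 1770, 1957 and 2038 in the shSCR libraries. The groups did not overlap, but only a few CPM separated the highest shPTBP1 from the lowest shSCR library. Its log2 fold change of -0.17 (SE 0.06, 95% interval -0.29 to -0.05, not adjusted) did not pass the test (adjusted p = 0.112). It passed under a filter on a mean of at least 50 counts (adjusted p = 0.0485) and in limma-trend on the CPM table (0.0284). That table has no TMM scaling, and the median log2 fold change over all genes was -0.036 in this limma-trend fit. An unnamed protein-coding gene on the same strand, ENSG00000285043, ends within ALDOA and held 246 to 338 counts per library that may belong to either gene, and adding them changed no call.

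ALDOC (ENSG00000109107, chr17:28573115-28576948, minus strand) had a far lower level than ALDOA, with 82.2, 97.8, 87.6 and 79.4 normalized CPM after shPTBP1 and 116, 110, 115 and 138 after shSCR. All shPTBP1 libraries were below all shSCR libraries, and the change of -0.46 (SE 0.10, interval -0.68 to -0.25) passed the test (adjusted p = 0.0167). That call was lost without shPTBP1 replicate 3 (0.0565), shPTBP1 replicate 4 (0.0619) or shSCR replicate 4 (0.0560), with a log2 fold change between -0.53 and -0.39 over all 8 omissions.

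Of the summed aldolase counts, ALDOC gave 4.57%, 5.24%, 5.16% and 4.55% of the counts after shPTBP1 and 5.91%, 5.86%, 5.54% and 6.34% after shSCR. The means were 4.88% ± 0.373 and 5.91% ± 0.331 (SD, n = 4 each), a difference of -1.03 percentage points (exact two-sided permutation test p = 0.0286, the smallest that 4 against 4 allow).

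TPI1, which interconverts the trioses (ENSG00000111669, chr12:6867119-6870948, plus strand), was among the lowest of the 9, at 15 to 26 counts per library. Its level was 12.7, 10.6, 12.5 and 16.6 normalized CPM after shPTBP1 and 15.4, 15.3, 14.7 and 9.62 after shSCR. The groups overlapped, with shSCR replicate 4 the lowest of all, and the change of -0.07 (SE 0.23, interval -0.56 to 0.43, edgeR adjusted p = 0.917) left a wide range at this depth. Nearly all its counts were on the transcript TPI1-210, whereas the MANE Select transcript TPI1-202 received 1 count in all 8 libraries. Whether quantification or the filter on mapping quality left out reads of TPI1, or of the sparse markers SPI1 and FLT3, was not tested, so that its level and rank are those of the deposited counts alone.

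GAPDH, the dehydrogenase that makes NADH (ENSG00000111640, chr12:6534512-6538374, plus strand), was the most abundant of the 9. It had 10634, 12179, 11558 and 10610 normalized CPM after shPTBP1 and 11253, 11753, 11625 and 11763 after shSCR. The shPTBP1 libraries spread on both sides of the shSCR libraries, and the change was -0.04 (SE 0.05, interval -0.16 to 0.07, edgeR adjusted p = 0.705).

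PGK1, the first enzyme of the pathway to return ATP (ENSG00000102144, chrX:77910739-78129295, plus strand), had 345 ± 21.3 normalized CPM after shPTBP1 and 356 ± 28.3 after shSCR (SD, n = 4 each). The libraries ranged from 314 to 362 and from 335 to 397, so that the groups overlapped. Its change was -0.04 (SE 0.07, interval -0.20 to 0.12, edgeR adjusted p = 0.820).

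PGAM1, the mutase that moves the phosphate within phosphoglycerate (ENSG00000171314, chr10:97426191-97433444, plus strand), had 117 ± 7.70 and 121 ± 17.0 normalized CPM. The range of shPTBP1 libraries, 111 to 128, lay inside that of shSCR libraries, 100 to 141. Its change was -0.05 (SE 0.10, interval -0.27 to 0.17, edgeR adjusted p = 0.844).

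Enolase, which makes phosphoenolpyruvate, is encoded by ENO1 in most tissues and by ENO2 in neurons. ENO1 (ENSG00000074800, chr1:8861000-8879190, minus strand) had 5285, 5277, 5107 and 4811 normalized CPM after shPTBP1 and 5490, 5648, 5631 and 5461 after shSCR. The groups did not overlap, yet the change of -0.12 (SE 0.05, interval -0.22 to -0.02) did not pass the test (adjusted p = 0.187).

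ENO2 (ENSG00000111674, chr12:6913745-6923698, plus strand) had the largest fold change of the 9 and few counts. There were 20, 19, 9 and 15 counts after shPTBP1 and 29, 39, 25 and 30 after shSCR, or 12.7, 12.6, 5.92 and 9.60 against 17.8, 24.8, 16.7 and 19.2 normalized CPM. The groups did not overlap, and the lowest value was that of shPTBP1 replicate 3. The change of -0.94 (SE 0.25, interval -1.47 to -0.41) passed the test (adjusted p = 0.0421). It passed in 1 of 8 fits that left out a library, without shPTBP1 replicate 1 (0.0482), and in the other 7 the adjusted p was between 0.0556 and 0.120 at a log2 fold change from -1.05 to -0.75.

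ENO2 made up 0.239%, 0.237%, 0.116% and 0.199% of enolase counts after shPTBP1 and 0.323%, 0.437%, 0.295% and 0.351% after shSCR. The means of 0.198% ± 0.0576 and 0.351% ± 0.0614 (SD, n = 4 each) differed by -0.154 percentage points (exact two-sided permutation test p = 0.0286). Without shPTBP1 replicate 3 the exact p was 0.0571. The muscle enolase ENO3 had 31 counts after shPTBP1 and 42 after shSCR in all. Among neuronal markers, RBFOX3 was at 0, and SNAP25, a synaptic membrane protein, had 73 counts after shPTBP1 and 36 after shSCR (log2 fold change 1.02, edgeR adjusted p = 0.197). The summed level of both markers ran from 8.56 to 15.9 normalized CPM after shPTBP1 and from 2.46 to 12.7 after shSCR, and the part of such transcripts in the values of ALDOC and ENO2 was not tested.

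**Figure D3:**
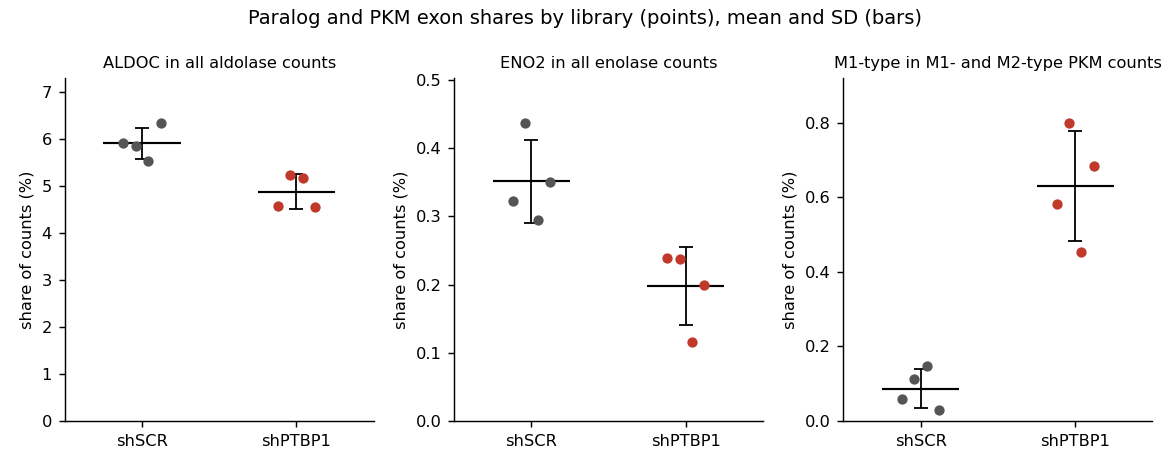
Share of counts (y axis in %, from 0) of ALDOC among aldolases, ENO2 among enolases and M1-type among M1- and M2-type PKM transcripts, with points for libraries and bars for the mean and SD of 4 per group. ALDOC and ENO2 shares are lower in all 4 shPTBP1 libraries and M1-type shares are higher in all 4, where their mean is 0.630%.

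PKM, which makes pyruvate and ATP from phosphoenolpyruvate (ENSG00000067225, chr15:72199029-72231819, minus strand), fell by 35.1% in the fit (interval -40.1% to -29.7%). It had 1414, 1496, 1459 and 1407 normalized CPM after shPTBP1 and 2059, 2297, 2275 and 2273 after shSCR, with 2198 to 3607 counts per library. A wide gap separated the groups, and within shSCR replicate 1 stood below the other three. The log2 fold change of -0.62 (SE 0.05, interval -0.74 to -0.51) passed the test with an adjusted p of 2.20e-05 in edgeR and in all 8 fits that left out a library (-0.66 to -0.61). The mean level differed by -782 CPM, compared with -438 for ENO1, -353 for GAPDH and -212 for ALDOA.

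PKM carries a pair of mutually exclusive exons of 167 bases, M1 and M2, and a protein-coding transcript holds at most 1 of them. Both are printed because PKM counts were split by which of them an annotated transcript overlaps, wholly or in part. The split thus rests on the assignment of reads to transcripts, and reads over the exons themselves were not counted. PKM-201 (M1) and PKM-202 (M2) also differ in length, at 2717 and 2305 bases. The M1 exon lies at chr15:72203022-72203188 and the M2 exon at chr15:72202454-72202620, both on the minus strand of GRCh38, with 401 bases of intron between them and M1 first in the direction of transcription. They are coding exons, written 5′ to 3′ in the sense of the transcript, and capitals mark the 62 positions at which they differ (62.9% identical without gaps).
M1 exon: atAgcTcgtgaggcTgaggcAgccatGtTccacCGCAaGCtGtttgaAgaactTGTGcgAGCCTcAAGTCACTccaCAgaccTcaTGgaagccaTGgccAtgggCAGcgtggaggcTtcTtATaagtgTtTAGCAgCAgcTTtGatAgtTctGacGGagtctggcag
M2 exon: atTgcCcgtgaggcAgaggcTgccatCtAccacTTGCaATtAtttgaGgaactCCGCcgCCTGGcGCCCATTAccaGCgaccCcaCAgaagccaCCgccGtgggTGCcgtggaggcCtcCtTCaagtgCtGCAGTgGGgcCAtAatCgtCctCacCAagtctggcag

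The 60 bases of intron just before each exon are shown because PTBP1 is known to bind pyrimidine-rich RNA. They lie at chr15:72203189-72203248 for M1 and chr15:72202621-72202680 for M2, and capitals mark TCTT.
before M1: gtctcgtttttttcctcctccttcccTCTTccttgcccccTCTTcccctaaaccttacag
before M2: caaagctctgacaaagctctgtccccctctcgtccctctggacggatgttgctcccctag
The stretch before M1 held 2 copies of TCTT and 85.0% pyrimidines, and that before M2 held none and 63.3%. Searched on the transcript strand alone, TCTT was present in 52.0% of 163841 such stretches before internal exons of MANE transcripts, and CTCTCT, which can overlap it, in 7.39% of them and in neither of these. Such matches are descriptions of the sequence and no binding was measured here.

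M1-type PKM transcripts, with the M1 exon and without M2, had 13, 18, 10 and 15 counts after shPTBP1 and 2, 4, 5 and 1 after shSCR. Their share of M1- and M2-type counts was 0.583%, 0.799%, 0.452% and 0.685% against 0.0598%, 0.111%, 0.147% and 0.0283%. Every shPTBP1 library was above every shSCR library. The means were 0.630% ± 0.148 and 0.0865% ± 0.0527 (SD, n = 4 each), a difference of 0.543 percentage points (exact two-sided permutation test p = 0.0286). Over pooled counts, 56 of 8881 against 12 of 13879, the share was 7.29 times higher (exact 95% interval 3.86 to 14.9, for counting error only). Most of these counts were on the coding transcript PKM-201, with 12, 14, 7 and 13 against 2, 4, 5 and 1, which had too few counts for the test of isoform usage.

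The level of M1-type transcripts rose while that of M2-type transcripts fell. M1-type transcripts had 9.08 ± 2.25 normalized CPM after shPTBP1 and 1.94 ± 1.23 after shSCR (exact two-sided permutation test p = 0.0286, n = 4 each), and M2-type transcripts 1430 ± 39.2 and 2219 ± 110 (exact p = 0.0286). The mean of the M1-type increased by 7.14 CPM and that of the M2-type decreased by 789 CPM, and M2-type transcripts remained over 99% of the PKM counts that carry either exon in every library. Transcripts with neither exon, whose counts were all on transcripts annotated with a retained intron, held 30 and 32 counts in all after shPTBP1 and shSCR, and those with both exons 3 and 1.

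**Figure D4:**
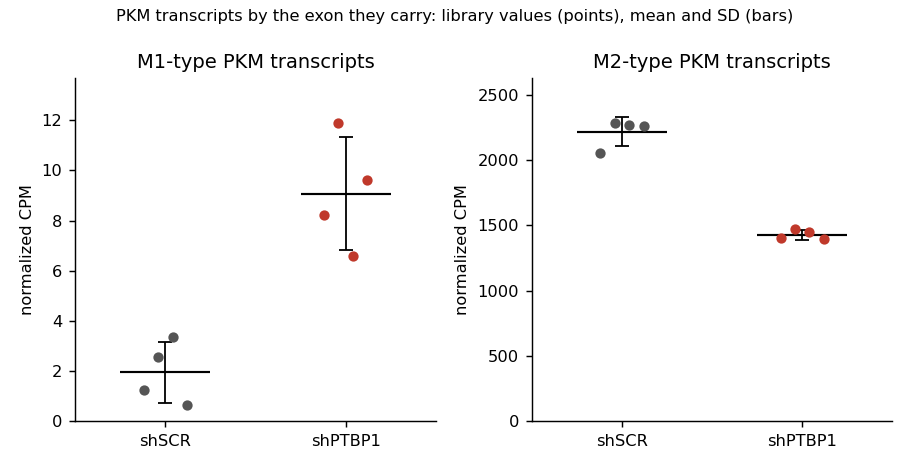
Normalized CPM (y axes from 0, on different scales) of PKM transcripts that carry the M1 exon (left) or the M2 exon (right), with points for libraries and bars for the mean and SD of 4 per group. M1-type values rise from 1.94 to 9.08 CPM on average and M2-type values fall from 2219 to 1430.

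The known regulators of the M1 and M2 choice were read in the same libraries. All 8 on the list were tested, 1 was called lower, PTBP1 (log2 fold change -2.26, edgeR adjusted p = 7.18e-05), and 1 higher, PTBP2 (6.36, 2.14e-10), the paralog of PTBP1 that neurons use. PTBP2 had 185 to 199 counts after shPTBP1 and 1 to 4 after shSCR. The other 6 were not called. The largest change among them was that of PTBP3, at 0.38 (edgeR adjusted p = 0.118), with HNRNPA2B1 at 0.19 and RBM4 at -0.17. HNRNPA1, which like PTBP1 represses the M1 exon, was at -0.05, and SRSF3, which promotes the M2 exon, at 0.16. MYC, a transcription factor that raises these repressors, was at 0.01. HIF1A, a transcription factor for many glycolysis genes, differed by 0.03 on the log2 scale (edgeR adjusted p = 0.911).

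No isoform of a member was called as changed in usage. Of 113 transcripts listed for the 9 genes, 64 had a count, and 17 from 6 genes were tested with diffSpliceDGE of edgeR. There, 0 of 17 were called, against 1.12% of the 5464 isoforms tested in all, and 0 had an unadjusted p under 0.05. With limma diffSplice 0 were called too, and 1 had an unadjusted p under 0.05 (smallest adjusted p = 0.280). The largest difference among the tested isoforms was -4.53 percentage points, for PGK1-201.

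PGK1 was the gene with the most divided counts among those tested. The full-length PGK1-201 (4812 bases) held 77.6%, 73.8%, 71.1% and 68.6% after shPTBP1 and 75.5%, 80.5%, 78.1% and 75.0% after shSCR. PGK1-203 (960 bases, with no defined coding sequence) held 22.8% ± 2.80 and 19.0% ± 2.11 (SD, n = 4 each). Both overlapped between groups. Among the aldolases, ALDOA-219 held 89.2% ± 0.307 and 88.9% ± 0.587, ALDOA-206 held 7.27% ± 0.411 and 7.05% ± 0.337, ALDOC-201 held 77.2% ± 4.28 and 78.3% ± 1.41, and ALDOC-203 held 22.8% ± 4.28 and 21.5% ± 1.46. In ENO2, whose isoforms were too sparse to test, ENO2-211 held 76.8% ± 9.54 and 71.7% ± 7.21, ENO2-201 17.8% ± 12.2 and 26.8% ± 8.48, and ENO2-205 5.34% ± 4.54 and 1.47% ± 1.73.

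The remaining 5 genes were nearly of 1 isoform each. ENO1-201 held 99.0% and 99.2% of ENO1 counts after shPTBP1 and shSCR, GAPDH-201 98.8% and 98.9%, PGAM1-201 99.7% and 100%, and TPI1-210 97.5% and 97.3%. PKM-202, the M2-type coding transcript, held 96.9% ± 0.210 and 97.7% ± 0.375, and its share was lower in all 4 shPTBP1 libraries. PKM transcripts annotated for nonsense-mediated decay held 2.02% ± 0.144 and 1.87% ± 0.404 of PKM counts, which overlapped.

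**Figure D5:**
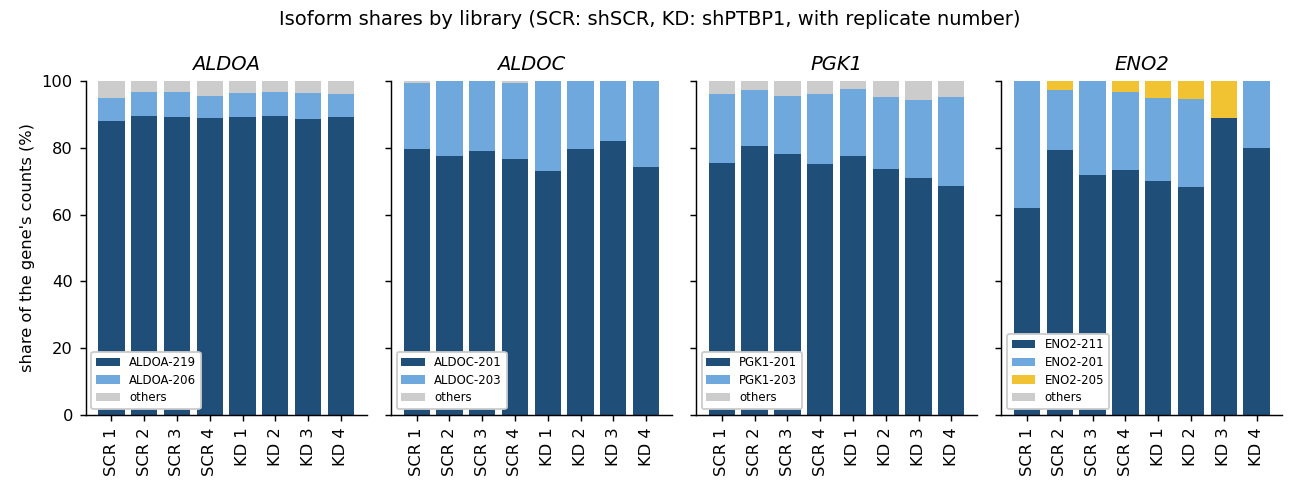
Share of the counts of ALDOA, ALDOC, PGK1 and ENO2 (y axis in %) on each isoform in each library (x axis, SCR for shSCR and KD for shPTBP1, with the replicate number). The main isoform leads in all 8 libraries of each gene, and the ENO2 bars rest on 9 to 39 counts.

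Levels were compared between genes per kilobase of the counted transcripts, in normalized CPM per kilobase. The deposited values have no length term, and whether counts of long reads grow with transcript length was not tested. Where they do not, the division sets long transcripts such as PGK1-201 (4812 bases) too low. After shSCR the order was GAPDH at 9026, ENO1 at 3120, ALDOA at 1292, PKM at 968, PGK1 at 90.9, ALDOC at 73.3, PGAM1 at 67.4, TPI1 at 9.38 and ENO2 at 7.87. Neighbours in this order were apart in all 4 libraries except for ALDOC and PGAM1 (67.5 to 84.6 and 55.5 to 78.4) and TPI1 and ENO2 (6.58 to 10.5 and 6.68 to 9.95), which overlapped. After shPTBP1 GAPDH, ENO1, ALDOA, PKM and PGK1 came first again, at 8751, 2875, 1148, 628 and 88.3. PGAM1 at 65.1 was then above ALDOC at 53.2, with ranges of 61.5 to 70.8 and 48.7 to 59.9, and TPI1 at 8.95 was above ENO2 at 4.08, with ranges of 7.22 to 11.4 and 2.37 to 5.07. The order depends on the division by length. In normalized CPM without it, PKM at 2226 was above ALDOA at 1901 in the shSCR libraries, and ENO2 at 19.6 was above TPI1 at 13.7, neither pair overlapping.

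The promoters of the members were compared because hypoxia-inducible factors, which act on many of these genes, bind ACGTG and GCGTG. All 9 genes matched RefSeq promoters on GRCh38.p14, 12 in number, and the 250 bases before each RefSeq start were searched on both strands. ACGTG or GCGTG was present in 9 of the 12, from 7 of the 9 genes, against 43.2% of 35116 promoters in all (18.5% for ACGTG and 32.2% for GCGTG). The promoters of the 3 genes called lower are shown, ALDOC at chr17:28576896-28577145 (minus strand), ENO2 at chr12:6914330-6914579 (plus strand) and PKM at chr15:72231191-72231440 (minus strand), with capitals for a match on either strand.
ALDOC: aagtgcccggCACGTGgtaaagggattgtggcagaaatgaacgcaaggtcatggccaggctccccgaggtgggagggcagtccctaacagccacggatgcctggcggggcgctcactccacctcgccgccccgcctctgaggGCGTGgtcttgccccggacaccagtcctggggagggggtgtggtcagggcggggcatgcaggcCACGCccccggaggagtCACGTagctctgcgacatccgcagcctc
ENO2: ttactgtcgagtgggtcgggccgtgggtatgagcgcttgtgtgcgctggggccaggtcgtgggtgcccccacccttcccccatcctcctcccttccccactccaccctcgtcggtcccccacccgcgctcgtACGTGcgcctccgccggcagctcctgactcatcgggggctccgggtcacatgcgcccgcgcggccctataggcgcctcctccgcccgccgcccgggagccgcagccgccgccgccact
PKM: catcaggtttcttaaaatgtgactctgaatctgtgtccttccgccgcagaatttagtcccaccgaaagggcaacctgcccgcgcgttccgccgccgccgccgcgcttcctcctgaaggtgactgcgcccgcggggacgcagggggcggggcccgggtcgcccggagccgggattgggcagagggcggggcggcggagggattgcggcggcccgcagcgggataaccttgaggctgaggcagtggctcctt
ALDOC held 5 matches, where CACGTG counts on both strands, ENO2 1 and PKM 0, so that the genes called lower differed in this respect. The ENO2 stretch lies just before ENO2-201, which starts at chr12:6914580. It lies within ENO2-211, which starts at chr12:6914327 and held most ENO2 counts, so it is not the promoter of that transcript. ENO1, GAPDH, PGK1, each ALDOA promoter and the TPI1 promoter at chr12:6867855-6868104, none of them called, also held matches. The GAPDH stretch, chr12:6535014-6535263, lies downstream of the start of GAPDH-201 at chr12:6534517. That TPI1 stretch lies downstream of the start of TPI1-210 at chr12:6867420. GAPDH-201 and TPI1-210 held nearly all counts of their genes, so these stretches are not the promoters of the transcripts counted. The other TPI1 promoter and that of PGAM1 held 0. The PGAM1 stretch, chr10:97427568-97427817, lies downstream of the start of PGAM1-201 at chr10:97426191.

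The genes whose level followed that of PKM most closely were CCNG1, YIPF3 and RNASET2, at a root mean square difference of 0.0448, 0.0688 and 0.0723 in centred log2 CPM over the 8 libraries, among 2349 genes of sufficient level. CCNG1, a cyclin-like protein, went from 1300 to 853 normalized CPM, YIPF3, a Golgi membrane protein, from 210.2 to 137.0, and RNASET2, a secreted and lysosomal ribonuclease, from 1277 to 792.

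The other genes of the pathway came from lists chosen with earlier results of these data known, and no difference between lists was tested. Of 13 genes for sugar entry and the steps up to fructose bisphosphate, 10 were tested, 7 were called lower and 0 higher (3.19% and 2.36% of all genes), and the median log2 fold change was -0.51. The glucose transporter SLC2A1 changed by -0.70, the hexokinases HK1 and HK2 by -0.51 and -0.77, and the ADP-dependent glucokinase ADPGK by -0.84. The isomerase GPI changed by -0.42 and the phosphofructokinase PFKL by -0.51. The seventh was PFKFB4, which makes or removes an activator of phosphofructokinase. Beyond pyruvate, 11 of 13 genes were tested and 1 was called lower, LDHA, which reduces pyruvate to lactate, at -0.28 (edgeR adjusted p = 0.0490), with 0 higher and a median of 0.01. LDHA had 1204 ± 88.8 and 1459 ± 144 normalized CPM (SD, n = 4 each).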

How the data were processed

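Nanopore cDNA libraries of the PCR-cDNA kit were prepared and sequenced for the authors by a service provider from 4 shPTBP1 and 4 shSCR samples. Per the labels and methods, reads were aligned to hg38 with minimap2, those with a mapping quality above 50 were kept, and transcripts were quantified with StringTie. Versions are not given in the sources used here. The deposited counts are whole numbers per transcript without normalization, and the second deposited table, named TPM, holds CPM, each count divided by its library total and multiplied by 1000000, with no division by length. Columns matched sample titles, and groups came from the labels.

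The 9 members and all lists were chosen with earlier results of these data known. Transcripts were joined to GENCODE version 44 by identifier (252562 of 254070), summed per gene, filtered with filterByExpr (minimum count 10) and scaled by TMM. Genes were compared in edgeR 4.0.16 (R 4.3.3) by glmQLFTest, with no term but the group, and a Benjamini-Hochberg value under 0.05 was taken as a call. Intervals of log2 fold changes include the spread between libraries and are not adjusted. Isoform usage was tested with diffSpliceDGE, where a call also needed a shift in mean share of at least 10 percentage points. Shares were compared with exact two-sided permutation tests over libraries. The edgeR test of genes and diffSpliceDGE were tried on simulated counts, and the other steps were not. Every member was named, with each isoform of at least 5% mean share, the 3 genes most like PKM and up to 6 called genes per list; PFKFB4 and PKM-201 were added after their values were seen. At 1528449 to 1613342 counts per library, genes of low level are measured imprecisely, and the interval of the pooled M1-type ratio covers counting error only, since amplified cDNA molecules are not independent. Alternatives were DESeq2 1.42.0, limma-voom, limma-trend and limma diffSplice (limma 3.58.1), DESeq2 size factors, other filters, protein-coding transcripts alone, added pseudogene counts, a replicate block and the omission of each library. Same-numbered libraries did not deviate together (correlations -0.0328 to 0.00889), so replicate numbers were not treated as pairs.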

Additional observations from a re-analysis of the deposited data

Results flagged for a closer look

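Among 52 groups of 4 libraries examined, 2 held a library whose gap to its nearest neighbour exceeded Dixon's critical value for 4 samples, where chance flags about 1 in 20 groups. TPI1 was at 9.62 normalized CPM in shSCR replicate 4 and at 14.7 to 15.4 in the other shSCR libraries, at 15 against 22 to 25 counts. PKM was at 2059 normalized CPM in shSCR replicate 1 and at 2273 to 2297 in the others, and that library was still above all shPTBP1 libraries.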

How the results depend on the processing

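PKM was called lower under each of 10 other settings and all 8 omissions of a library. The count of members called lower was 1 to 3 over the omissions, and those of all genes were 107 to 190 lower and 77 to 168 higher, against 242 and 179 with all libraries. DESeq2 called 157 genes lower and 157 higher, and gave ENO2 and TPI1 no adjusted p. On log2(CPM + 1) without TMM scaling, limma-trend called 272 lower and 129 higher, and 4 members, ALDOA (-0.21) included. Under a mean of at least 50 counts ALDOA was called (-0.19), and ENO2 and TPI1 were left out by the filter. With the replicate block the same 3 members were called (186 genes lower and 137 higher), and the share differences of -1.03 (ALDOC), -0.154 (ENO2) and 0.543 percentage points (M1-type) had an exact p of 0.125, the smallest that 4 pairs allow. Over the omissions these differences ranged from -1.15 to -0.885, from -0.173 to -0.125 and from 0.487 to 0.603. Omissions turned the sign of 3 genes that were not called, TPI1 (-0.20 to 0.020, above 0 without shPTBP1 replicate 2), PGK1 (-0.069 to 0.016, above 0 without shPTBP1 replicate 4 or shSCR replicate 1) and PGAM1 (-0.13 to 0.030, above 0 without shSCR replicate 4), and the cause was not tested. Isoforms called in all were 39 to 55 over the omissions, 61 with all libraries and 154 with limma diffSplice, none of a member. The values of TPI1, ENO2 and M1-type PKM rest on 1 to 39 counts per library. Pseudogenes of the members held 0 to 3 counts per gene and library, and adding them changed no member's call; reads removed by the filter on mapping quality were not analysed here.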
